A study of Homo sapiens with 6 samples.

Results

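S100 genes encode small calcium-binding proteins, and 10 of them were followed here: S100A2, S100A3, S100A4, S100A6, S100A10, S100A11, S100A13, S100A14, S100A16 and S100P. They were taken by symbol from count tables with 56638 gene rows, in which 21 symbols belong to the S100 family. The tables hold RNA-sequencing read counts of SW480, a human colorectal adenocarcinoma line, with 3 libraries of untreated cells (control) and 3 of cells given TGF-β1 at 10 ng/ml (TGFB1). TGF-β1 is a cytokine whose receptor kinases activate SMAD transcription factors. The labels state that the cytokine was given repeatedly and that all cells, control cells included, were at passages 16 to 19. They also give 10% serum for all 6 libraries. The time from the last dose to harvest was not used here. All 6 libraries come from 1 line, and no label ties a library to a separate culture, so each p-value reflects no more than the scatter among the libraries at hand, which may be technical.

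An S100 protein carries a pair of EF-hand loops and usually works as a dimer. When calcium binds, a hydrophobic surface opens and the dimer docks on a partner, such as an annexin, a myosin heavy chain or p53. Several S100 proteins also leave the cell and act on the receptor RAGE (gene AGER) or on TLR4. In tumours of the gut and other epithelia the family is best known for S100A4, linked to cell motility and metastasis, and for S100P, which is raised in many carcinomas. Most human S100 genes sit side by side on chromosome 1, while S100P lies apart on chromosome 4.

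Of the 10 genes 9 were higher with TGF-β1 and 1, S100P, was lower; each passed edgeR's quasi-likelihood test (Benjamini-Hochberg adjusted p, threshold 0.05). In this comparison 47.3% of the 14897 tested genes passed, 23.4% as higher and 23.9% as lower. S100A2 changed most, 5.19-fold upward, followed among the rises by S100A16 (1.85-fold), S100A3 (1.83-fold) and S100A14 (1.71-fold). The other rises were 1.52-fold for S100A10, 1.46-fold for S100A11, 1.29-fold for S100A6, 1.28-fold for S100A13 and 1.13-fold for S100A4. In all 10 genes the 3 TGFB1 libraries lay entirely on one side of the 3 control libraries, 9 above and 1 below. The same held for 54.2% of tested genes, 27.0% above and 27.3% below. The median log2 fold change of the 10 was 0.58, against 0.00033 over all tested genes. The scaling between libraries largely sets the second value, and the 10 were chosen with earlier results of these data known. This contrast is thus a description. Against a change of at least 1.5-fold, a stricter test chosen after the data were seen, 2 members passed as higher (S100A2 and S100A16) and 1 as lower (S100P), where 6.10% of tested genes passed as higher and 4.95% as lower.

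Levels are given as CPM, the counts of a gene per 1000000 counts of the library, scaled by TMM (edgeR's correction for composition), with mean ± SD over 3 libraries. Fold changes are TGFB1 over control with a 95% interval from the fit. Every member had at least 26 counts in every library, so none passed the filter on low counts through 1 group alone. The libraries held 13012898 to 16005222 counts in genes, and known targets of the pathway rose with treatment (edgeR adjusted p at most 3.96e-13): TGFBI from 14.6 ± 2.05 to 677 ± 16.4 CPM and SMAD7 from 18.2 ± 1.70 to 43.5 ± 4.19 CPM. Of 12 colorectal epithelial markers, 3 reached 1 CPM in control cells. KRT8 stood at 1711 ± 1.33 CPM, KRT18 at 183 ± 7.36 CPM and EPCAM at 6.94 ± 0.543 CPM, while CDX2 and ASCL2 had 0 counts in every library and KRT20, VIL1, CDH17 and CEACAM5 had at most 4 counts in any library. The line is called SW480 here because the labels do so.

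**Figure D1:**
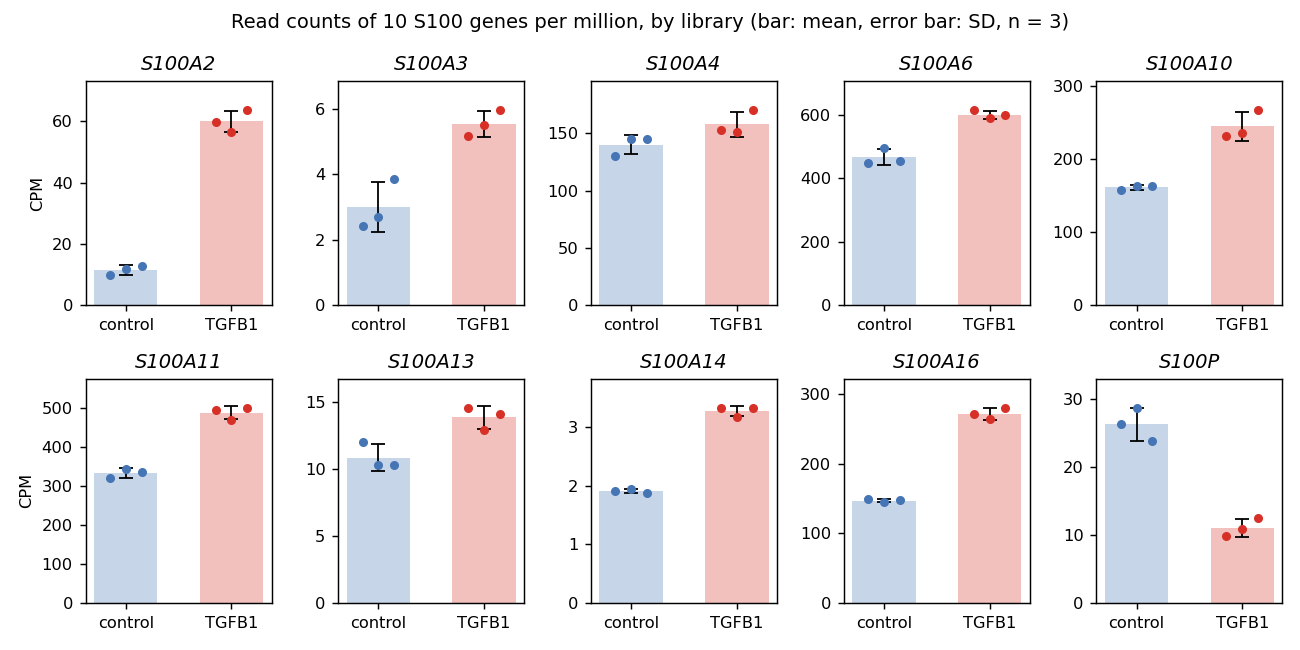
Level of each S100 gene in CPM (vertical axis, from 0) in the 3 control and 3 TGFB1 libraries; points are libraries, bars are means and error bars are SD. The TGFB1 points lie above the control points in 9 genes and below them in S100P, and S100A2 shows the largest ratio of means, 11.5 against 59.9 CPM.

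S100A2, a mostly nuclear S100 protein of epithelial cells that can bind p53, was low in untreated cells. Its level was 9.84, 11.7 and 12.9 CPM in control libraries 1, 2 and 3, and 59.7, 56.5 and 63.5 CPM in TGFB1 libraries 1, 2 and 3. The lowest treated library thus stood more than 4 times above the highest control library. The fold change was 5.19 (interval 4.59 to 5.86, log2 2.38 ± 0.086 SE, edgeR adjusted p = 2.92e-19), and only 1.07% of tested genes rose by more. Over all 15 other fits against no change, its log2 fold change stayed between 2.27 and 2.46. S100A2 moved from the seventh to the sixth place among the 10 genes in length-scaled level.

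RefSeq (GRCh38.p14) gives S100A2 a pair of start sites. The 250 bases before the outer one are shown because this gene had the largest change; capitals mark the only match to TGANTCA, the AP-1 core, which reads the same way on both strands and begins 52 bases before the start. The window is chr1:153565845-153566094, minus strand.
S100A2 outer start: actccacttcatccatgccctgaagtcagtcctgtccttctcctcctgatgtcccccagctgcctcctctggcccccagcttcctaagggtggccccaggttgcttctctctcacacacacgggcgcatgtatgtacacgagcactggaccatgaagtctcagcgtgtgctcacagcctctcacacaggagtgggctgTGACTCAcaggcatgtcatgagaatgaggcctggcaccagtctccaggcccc
The window before the inner start held no AP-1 core but 3 SMAD boxes (CAGAC, or GTCTG on the other strand) and 1 E-box of the ZEB type (CACCTG, or CAGGTG on the other strand).

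S100A3, which neighbours S100A2 and binds zinc as well as calcium, was among the rarer members. Control libraries 1, 2 and 3 had 2.42, 2.71 and 3.87 CPM and TGFB1 libraries 1, 2 and 3 had 5.16, 5.50 and 5.96 CPM. The groups did not overlap, although control 3 lay closer to the treated libraries than the other two did. The rise was 1.83-fold (1.41 to 2.37, edgeR adjusted p = 0.000237), resting on 33 to 58 counts in a control library. It did not pass against a 1.5-fold change (edgeR adjusted p = 0.153).

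S100A3 was the only other member with an AP-1 core before a start site, 225 bases upstream. The 30 bases around it, at chr1:153549465-153549494 (GRCh38.p14, minus strand), are set beside those of S100A2, at chr1:153565878-153565907, with the core in capitals.
S100A2: ggagtgggctgTGACTCAcaggcatgtcat
S100A3: ggaatcaggagTGAGTCActgggctagcat
Such a core was found in 2 of the 14 windows of the 10 genes and in 6.57% of 35116 RefSeq windows of the same length. Among the windows of tested genes alone the share was 4.55%. A match of letters is a description and not a binding site.

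S100A16 is a widely expressed member whose second EF-hand is the one that binds calcium. It stood at 150, 145 and 147 CPM in control libraries and at 271, 264 and 281 CPM in TGFB1 libraries, replicates 1 to 3 in each case. Both groups were tight, with SDs of 2.66 and 8.27 CPM around means of 147 and 272. The rise of 1.85-fold (1.73 to 1.97, edgeR adjusted p = 2.76e-15) passed against a 1.5-fold change as well (edgeR adjusted p = 1.31e-06). Its share of all reads counted in the 10 genes went from 11.3% ± 0.581 to 14.6% ± 0.030.

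Both 250-base windows before the S100A16 start sites are shown, since this was the most precisely measured large rise. Capitals mark SMAD boxes and ZEB-type E-boxes, and no pair of different motifs overlapped. The inner window, chr1:153609356-153609605, has a SMAD box on each strand, 122 and 115 bases before the start, and the outer window, chr1:153613138-153613387, has 1 SMAD box and 2 E-boxes (GRCh38.p14, minus strand).
S100A16 inner start: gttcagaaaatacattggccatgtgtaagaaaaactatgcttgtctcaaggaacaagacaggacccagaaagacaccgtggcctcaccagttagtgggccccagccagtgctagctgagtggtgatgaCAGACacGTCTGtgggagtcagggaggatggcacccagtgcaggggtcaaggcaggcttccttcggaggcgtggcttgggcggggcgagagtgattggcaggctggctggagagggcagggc
S100A16 outer start: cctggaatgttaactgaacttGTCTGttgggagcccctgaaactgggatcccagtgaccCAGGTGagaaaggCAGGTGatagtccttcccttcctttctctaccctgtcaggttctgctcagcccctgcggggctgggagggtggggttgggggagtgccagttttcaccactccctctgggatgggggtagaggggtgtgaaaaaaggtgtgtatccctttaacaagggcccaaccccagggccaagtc
SMAD boxes are short and common: 8 of the members' 14 windows held one, beside 38.0% of all windows, and 5 held a ZEB-type E-box, beside 17.5%. Among the windows of tested genes alone these shares were 36.3% and 16.1%.

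S100A14, an S100 protein of epithelial cells that lies next to S100A16, was the least abundant member. Control libraries 1, 2 and 3 had 1.91, 1.94 and 1.87 CPM, and TGFB1 libraries 1, 2 and 3 had 3.33, 3.18 and 3.32 CPM. The groups lay well apart, on 26 to 28 counts in a control and 44 to 52 in a TGFB1 library. The rise was 1.71-fold with a wide interval (1.27 to 2.31, edgeR adjusted p = 0.00311).

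S100A10 and S100A11 are best known for pairing with annexins: S100A10 (p11) holds annexin A2 in a complex at the membrane and has lost calcium binding, and S100A11 binds annexin A1. S100A10 stood at 157, 162 and 164 CPM in control libraries and at 231, 236 and 267 CPM in TGFB1 libraries. S100A11 stood at 321, 345 and 335 CPM in control libraries and at 495, 470 and 501 CPM in TGFB1 libraries. The treated libraries were higher throughout, and TGFB1 3 was the highest for both genes. The rises were 1.52-fold (1.41 to 1.63, edgeR adjusted p = 1.37e-10) for S100A10 and 1.46-fold (1.37 to 1.57, edgeR adjusted p = 7.20e-11) for S100A11. Neither passed against a 1.5-fold change (edgeR adjusted p = 0.949 and 1.00).

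S100A6 (calcyclin), a member raised in many growing cells, had the most reads of the family. Control libraries 1, 2 and 3 had 449, 495 and 455 CPM, and TGFB1 libraries 1, 2 and 3 had 614, 589 and 599 CPM. The rise was 1.29-fold (1.20 to 1.38, edgeR adjusted p = 2.21e-07). Its share of the reads of the 10 genes nevertheless went from 35.8% ± 0.861 to 32.4% ± 0.974, its rise being smaller than the ratio of 1.43 for the sum of the 10.

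S100A4 (metastasin, also called FSP1), which binds the tail of non-muscle myosin IIA and is used as a marker of fibroblast-like and mesenchymal cells, moved least. It was already abundant in untreated cells, at 130, 145 and 145 CPM, and reached 153, 151 and 170 CPM in TGFB1 libraries 1, 2 and 3. The groups did not overlap, but the gap between them was smaller than either SD (8.34 and 10.6 CPM). The rise of 1.13-fold (1.04 to 1.22, edgeR adjusted p = 0.0115) did not pass without control 1 (edgeR adjusted p = 0.105) or without TGFB1 3 (edgeR adjusted p = 0.0709). Of all tested genes 30.8% rose by more.

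S100A13 takes part in the release of FGF1 and interleukin-1α, which lack a signal peptide. It stood at 11.97, 10.3 and 10.3 CPM in control libraries and at 14.5, 12.9 and 14.1 CPM in TGFB1 libraries. The groups were separated by less than 1 CPM. The rise of 1.28-fold (1.10 to 1.49, edgeR adjusted p = 0.00799) was lost without control 3 (edgeR adjusted p = 0.0520). This gene is the least certain in level: in GENCODE 29, 33.5% of its exonic bases also belong to exons of S100A1, on the other strand, or of AL162258.1, on the same strand. Reads on those bases could be set aside as ambiguous or, where S100A1 is concerned, given to 1 gene by strand; the strand setting of the counting is not known here. For the other 9 members this share was at most 2.37%.

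S100P, the member outside the chromosome 1 group, binds ezrin inside the cell and RAGE outside it. It was the only one to fall, from 26.4, 28.7 and 23.8 CPM in control libraries 1, 2 and 3 to 9.85, 10.9 and 12.5 CPM in TGFB1 libraries 1, 2 and 3. The highest treated library lay well under the lowest control library. The level was 2.38-fold lower (2.06 to 2.74, edgeR adjusted p = 1.73e-11), also past a 1.5-fold change (edgeR adjusted p = 5.81e-07), and 2.87% of tested genes fell by more. Its share of the reads of the 10 genes went from 2.02% ± 0.162 to 0.596% ± 0.060.

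S100P shares with S100A4 and S100A13 a TATA box (TATAAA, or TTTATA on the other strand) 28 to 31 bases before a start site, at chr4:6693838-6693867 on the plus strand, chr1:153545820-153545849 and chr1:153627517-153627546 on the minus strand (GRCh38.p14). The stretches are printed, with the box in capitals, because these 3 genes include the only fall and the smallest rises. That choice was made from these same fold changes. S100A13 has 3 windows, and the box lies in 1 of them. Only exact matches were counted. In the same span before their starts, the windows of S100A6 and S100A14 read TATAAG, and these genes rose 1.29-fold and 1.71-fold. A link between the box and the direction or size of the change was not tested.
S100P: atgaggctgcctTATAAAgcaccaagaggc
S100A4: gcctggctggggTATAAAtaggtcagacct
S100A13: ttccccgctgctTATAAAcctcagccctga
The box was present in 3 of the members' 14 windows and in 10.7% of all RefSeq windows, or 5.89% of the windows of tested genes. Of the 250 bases in the window with the box, 250 also lie in exons of GENCODE 29 transcripts for S100P, 79 for S100A4 and 93 for S100A13.

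**Figure D2:**
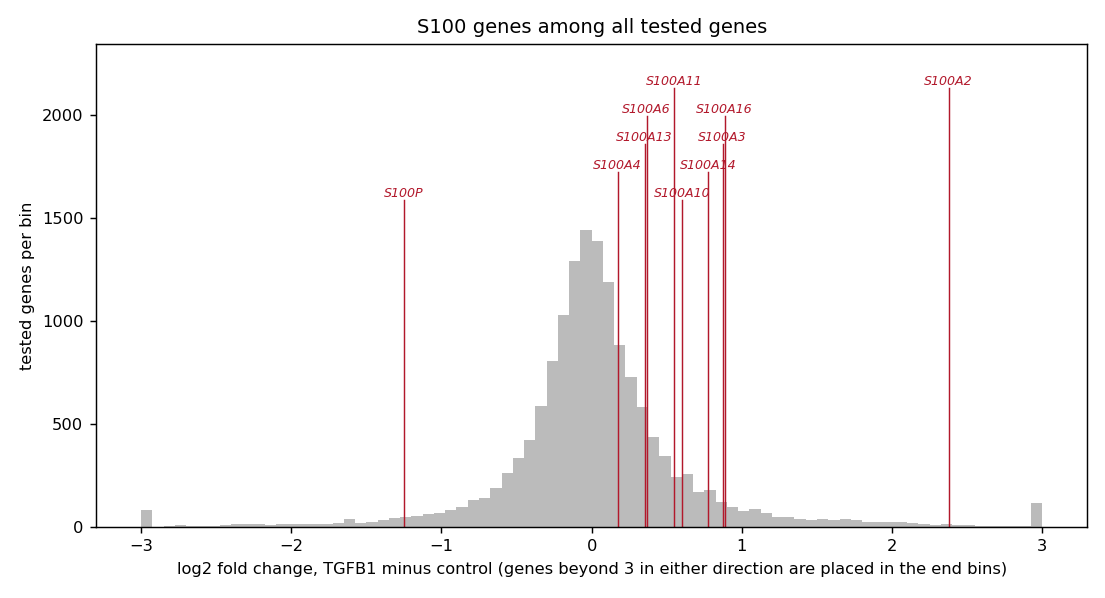
Distribution of log2 fold changes (TGFB1 minus control) of the 14897 tested genes in bins (vertical axis: genes per bin), with the 10 S100 genes as red lines. S100A2, at 2.38, and S100P, at −1.25, lie in the tails, and the other 8 lie between 0.17 and 0.88.

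Levels of different genes were compared after division by the length of the longest GENCODE 29 transcript. In control cells S100A6 came first, at 693 ± 36.7 CPM per kilobase, then S100A11 at 561 ± 20.4 and S100A4 at 185 ± 11.04. S100A10 (134 ± 2.86) and S100A16 (129 ± 2.32) followed, and their libraries overlapped, so their order is not settled. S100P (20.6 ± 1.91), S100A2 (11.5 ± 1.54), S100A13 (4.96 ± 0.447), S100A3 (3.51 ± 0.898) and S100A14 (1.57 ± 0.030) made up the lower part, a range of 442-fold from first to last. Each of these last 5 differed from its neighbour in the order without overlap of libraries.

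With TGF-β1 the order changed in the middle. S100A16 took the third place, at 237 ± 7.22 CPM per kilobase, above S100A4 (209 ± 14.1) and S100A10 (203 ± 16.1), whose libraries overlapped. S100A2 (60.03 ± 3.52) passed S100P (8.66 ± 1.02), so that this pair changed places. S100A3 (6.47 ± 0.468) and S100A13 (6.34 ± 0.391) overlapped. With coding length in place of transcript length S100A10 and S100A16 stood above S100A4 in control cells, at 554, 477 and 462 CPM per kilobase, and the range narrowed to 283-fold. In TGFB1 libraries coding length put S100A13 (47.1) above S100P (38.9) and S100A3 (18.3), with S100A2 (206) above all of these. The lower part of the treated order thus depends on the length used.

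**Figure D3:**
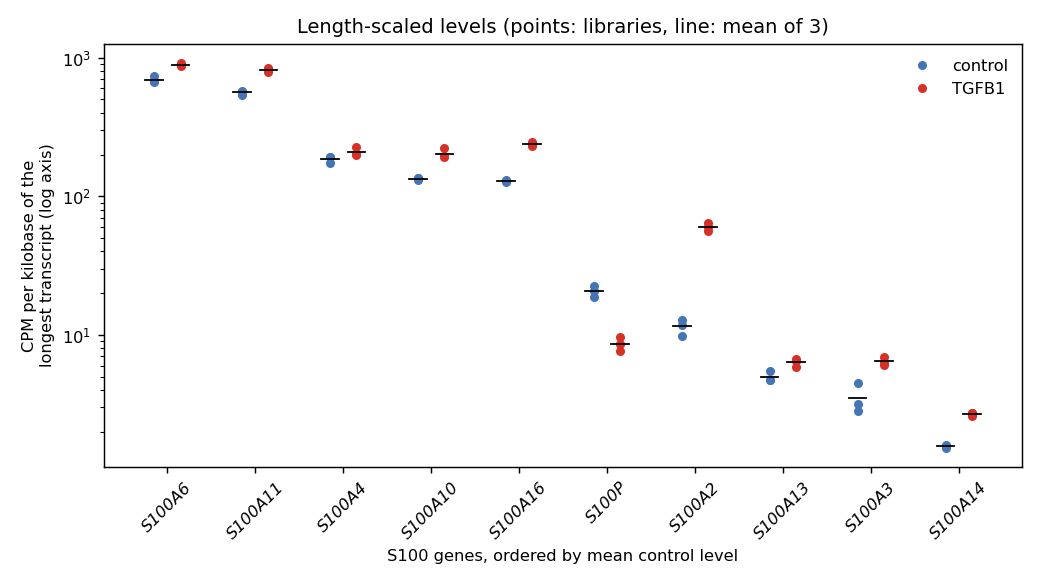
CPM per kilobase of the longest transcript (log axis) for the 10 S100 genes, ordered by mean control level; points are libraries and black lines are means of 3. S100A2 rises past S100P, from 11.5 to 60.03, while S100A6 and S100A11 are the most abundant of the 10 in both groups.

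Summed over the 10 genes, the level was 1260, 1346 and 1299 CPM in control libraries and 1856, 1799 and 1916 CPM in TGFB1 libraries, a ratio of 1.43. In both groups S100A6, S100A11, S100A10, S100A16 and S100A4 held most of this sum. S100A11 took 25.6% ± 0.184 of the members' reads in control and 26.3% ± 0.300 in TGFB1 libraries, and S100A10 took 12.4% ± 0.281 and 13.2% ± 0.738. The share of S100A2 went from 0.881% ± 0.106 to 3.22% ± 0.087, and that of S100A4 from 10.7% ± 0.400 to 8.49% ± 0.342. These shares describe the libraries and were not tested.

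In the order of RefSeq genes on chromosome 1, S100A2 had the highest fold change of the S100 group, and its tested neighbours on both sides had lower ones. From S100A6 the log2 fold changes ran 0.37 (S100A6), 0.17 (S100A4), 0.87 (S100A3), 2.38 (S100A2), 0.88 (S100A16), 0.78 (S100A14) and 0.35 (S100A13). The 95% interval of S100A2, 2.20 to 2.55, overlapped neither that of S100A3 (0.50 to 1.25) nor that of S100A16 (0.79 to 0.98). S100A10 (0.60) and S100A11 (0.55), which lie together away from this run, had overlapping intervals of 0.49 to 0.71 and 0.45 to 0.65. The differences between genes were not tested.

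Genes beside the S100 group went in either direction. Of 18 tested neighbours among 22 listed, 4 rose, 7 fell and 7 did not pass, with a median log2 fold change of −0.064. CHTOP, an mRNA export factor directly past S100A1 and chosen after its values were seen, was 1.13-fold lower (edgeR adjusted p = 0.00576). Among the neighbours with the lowest p, falls were seen for INTS3 (an Integrator subunit), 1.28-fold, JTB 1.21-fold and NPR1 (a natriuretic peptide receptor) 1.26-fold. Whether the S100 genes differ as a group from their neighbours was not tested.

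**Figure D4:**
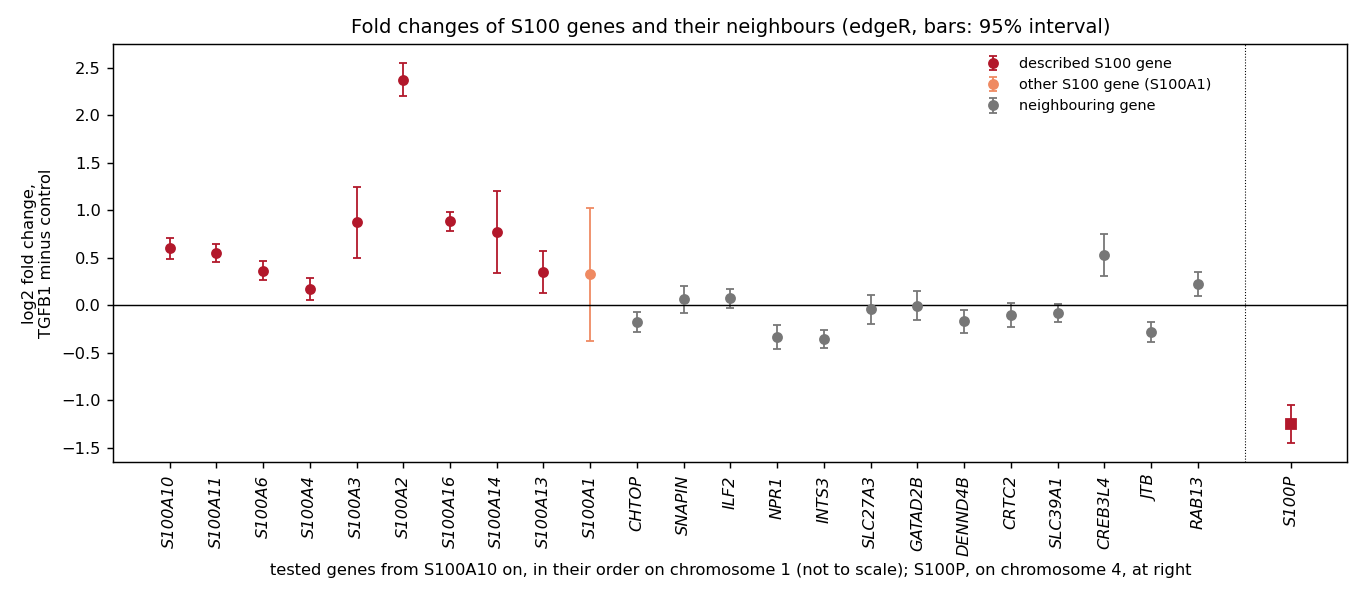
Log2 fold change (TGFB1 minus control, with 95% intervals) of tested genes from S100A10 on in their chromosome 1 order, not to scale, with S100P of chromosome 4 at right; red marks the described S100 genes, orange S100A1 and grey the neighbours. S100A2 stands highest at 2.38, S100A4 is the lowest of the described chromosome 1 genes at 0.17, and S100P lies at −1.25.

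The other 11 S100 symbols were rare or silent. S100A1, which regulates calcium handling in muscle, was the only one tested. It had 1.17, 1.04 and 0.668 CPM in control and 1.63, 0.794 and 1.21 CPM in TGFB1 libraries, the groups overlapped, and it did not pass (log2 0.33, interval −0.38 to 1.03, edgeR adjusted p = 0.465). S100A5 had 18 counts over the control and 20 over the TGFB1 libraries, and S100B, the glial and melanocytic member, had 1 count in all. The remaining 8, S100A7, S100A7A, S100A7L2, S100A8, S100A9, S100A12, S100G and S100Z, had 0 counts, which allows a level of up to 0.0698 CPM in control and 0.0677 CPM in TGFB1 cells, counting error only. S100A8 and S100A9 form calprotectin in myeloid cells, so that the calprotectin genes were not detected in either group. Thus 10 of the 11 S100 genes with enough reads to be tested passed, where 47.3% of all tested genes did. Those 10 were chosen with earlier results of these data known, so the count is a description and no test of the family.

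Annexins, the membrane-binding partners of several S100 proteins, changed in 9 of 11 tested: 6 rose, 3 fell and 2 did not pass, with a median log2 fold change of 0.17. ANXA5 rose from 450 ± 8.99 to 587 ± 13.9 CPM (1.30-fold, edgeR adjusted p = 3.80e-08). ANXA11, which binds S100A6, fell from 180.3 ± 4.33 to 119.9 ± 3.16 CPM (by 0.59 on the log2 scale, edgeR adjusted p = 3.70e-11). ANXA8L1 and ANXA8L2 rose 3.71-fold and 3.15-fold from 4.10 ± 0.499 and 6.75 ± 0.258 CPM, but both are near-identical copies of ANXA8, so the counting could split or lose their reads. ANXA2, the partner of S100A10 and chosen after its values were seen, stood at 509, 564 and 549 CPM in control and 615, 596 and 608 CPM in TGFB1 libraries. Its rise of 1.12-fold (log2 0.17, edgeR adjusted p = 0.00452) did not pass without control 1 (edgeR adjusted p = 0.0509). Whether ANXA2 and S100A10 differ in their change was not tested.

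Among 20 tested partners and receptors of S100 proteins, 6 rose, 8 fell and the other 6 did not pass (median log2 fold change −0.046). The receptor TLR4 fell from 11.7 ± 1.26 to 2.31 ± 0.521 CPM (5.09-fold, edgeR adjusted p = 1.11e-12), and KCNK3, a potassium channel brought to the membrane with S100A10, fell 4.53-fold from 10.2 ± 0.542 CPM. MDM2, the p53 ubiquitin ligase that S100 proteins can bind, fell 1.64-fold, and NUCB1, an EF-hand protein of the Golgi, fell 1.46-fold. The next genes were chosen after their values were seen. AGER, the receptor RAGE, had 3.20 ± 0.559 CPM in control and 3.04 ± 0.261 CPM in TGFB1 libraries, without passing (log2 −0.083, interval −0.49 to 0.33, edgeR adjusted p = 0.765). MYH9, the myosin heavy chain that S100A4 binds, rose 1.39-fold to 1428 ± 89.7 CPM (edgeR adjusted p = 2.34e-09). EZR (ezrin), the partner of S100P, rose 1.11-fold (edgeR adjusted p = 0.00536), and CACYBP, the partner of S100A6, stood at 144 ± 0.426 and 147 ± 9.38 CPM (edgeR adjusted p = 0.727).

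Markers of cells that could carry S100 transcripts of their own were read from the same libraries. The summed level of 10 fibroblast markers went from 91.0 to 95.1 CPM in control libraries to 121 to 137 CPM in TGFB1 libraries. COL1A1 made up most of this sum, while COL1A2, COL3A1 and PDGFRA had at most 2 counts in any library. Of these markers 5 were tested and each passed as higher, but FAP and THY1 had at most 12 counts in any control library and entered the test through the TGFB1 libraries, so the count of 5 is no measure of the list. Since this sum rose, every gene that rose shares its direction, the 9 members and the 23.4% of tested genes that passed as higher alike. The shared direction is thus no measure of a link, and the part of these markers in any rise was not tested. Of 10 myeloid markers 5 had 0 counts in every library: PTPRC, FCGR3A and the S100 genes S100A8, S100A9 and S100A12, whose absence is already given above. The myeloid sum was 1.25 to 2.00 CPM in control and 2.99 to 4.38 CPM in TGFB1 libraries, nearly all of the difference from CSF1R. Melanocytic and glial markers summed to 55.9 to 61.6 CPM in control and 46.3 to 53.4 CPM in TGFB1 libraries, mostly MITF. Keratinocyte markers, mostly KRT10, summed to 37.9 to 42.5 CPM and 33.4 to 40.1 CPM, with KRT5, KRT1, LOR and S100A7 at 0. Endothelial markers summed to 2.72 to 3.47 CPM and 0.856 to 1.22 CPM, with PECAM1 and KDR at 0. In bulk RNA, more cells with a transcript and more transcript per cell cannot be told apart.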

How the data were processed

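RNA of 6 SW480 libraries, 3 control and 3 TGFB1, was sequenced. The authors deposited whole-number read counts per gene symbol for each library, without normalization. Per the submitters' processing notes, TopHat2 2.0.11, TopHat, HTSeq and the builds hg19 and GRCh37 were named, with no role stated; the sources used here give neither annotation nor strand setting. The counter's closing lines stayed out: no feature (5.44% to 5.98% of the column total), multiple alignments (12.0% to 12.5%) and ambiguous (9.01% to 9.43%). Reads that could not be given to a single gene are thus missing from the counts.

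Genes kept by filterByExpr (minimum count 10, minimum total 15) were scaled by TMM and tested with edgeR 4.0.16 (robust quasi-likelihood fit, Benjamini-Hochberg adjustment over all tested genes, threshold 0.05). SEs were derived from each F statistic. Pairs of libraries within a group differed beyond sampling noise (chi-square per degree of freedom 1.76 to 4.34), and each was counted as a replicate. Named genes were the 10 members, every other S100 gene, up to 4 tested genes with the lowest p of each partner or neighbour list, and 3 treatment checks; a few of these are not reported here. The members and lists were chosen with earlier results of these data known. The test was tried on simulated counts. Alternatives used DESeq2 1.42.0, limma 3.58.1 (voom), other scalings and filters, the replicate number as a block, and each library left out; the test against a 1.5-fold change and coding length were added after the data were seen. All 10 members matched GENCODE 29 and the RefSeq promoter table (GRCh38.p14), of another build than the counts; these gave lengths, overlaps, gene order and the 250 bases before each start. Protein sequences were not used here. Floors for a count of 0 take 3 counts over a group, and reads carry no molecular identifiers.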

Additional observations from a re-analysis of the deposited data

How the results depend on the processing

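The directions of the 10 S100 genes held under all 15 planned fits, and 8 of the 10 kept their call in each. Leaving out single libraries gave 8 to 9 members as higher and 1 as lower, with 6115 to 6816 genes called in all; the calls that ended are those of S100A4 and S100A13, given above. The summed level of the 10 genes, 1.43 times the control level, became 1.48 times with scaling by library size alone, a scaling that moves the median of all genes by 0.057 on the log2 scale. The test against a 1.5-fold change, added after the data were seen, left 1646 genes, 2 members as higher, 2 annexins, 3 S100 partners, 3 other EF-hand genes and 1 neighbour on chromosome 1. Coding length in place of transcript length, added likewise, gave a range of 283-fold between members. AGER and CACYBP, which did not pass, changed sign: with single libraries left out, the log2 fold change of AGER ran from −0.20 to 0.058 (positive without control 3) and that of CACYBP from −0.024 (without TGFB1 3) to 0.068. Same-numbered libraries did not deviate together (correlations of −0.13 to 0.026 across genes), so the numbers are not taken to pair them; with the replicate number as a block 9 members were higher, 1 was lower and 6775 genes were called. The planned comparison of protein sequences and the planned protein-based length were not run. Depth limits S100A14 and S100A3, and S100A1 and S100A5 more so.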

Other observations

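EF-hand genes outside the S100 family were mixed. Of 22 tested, 6 rose, 8 fell and 8 did not pass, with a median log2 fold change of −0.012. The 4 with the lowest p all fell: RCN1, a reticulocalbin of the endoplasmic reticulum, from 219 ± 9.12 to 72.8 ± 2.71 CPM (3.01-fold, edgeR adjusted p = 3.96e-20), CHP1, a calcineurin-like cofactor of sodium-proton exchangers, from 211 ± 4.85 to 114 ± 5.82 CPM, EFHD2 (swiprosin-1) 1.67-fold, and CALM3 1.54-fold, from 228 ± 8.20 to 148 ± 5.15 CPM.

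CALM2, which encodes the same calmodulin protein as CALM3 and was looked at after the value of CALM3 was seen, rose from 477 ± 26.4 to 582 ± 43.6 CPM (edgeR adjusted p = 5.52e-05). None of the 7 genes of the fused S100 type, such as filaggrin (FLG) and trichohyalin (TCHH), had enough counts to be tested. TCHH had 6 counts over the control and 17 over the TGFB1 libraries, and FLG had 10 and 2.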
